A study of Saccharomyces cerevisiae with 2 samples.

Results

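Glycerol is made, taken up and burned by a small set of enzymes and transporters in the budding yeast Saccharomyces cerevisiae, and 10 of their genes are described here, out of 6603 open reading frames (ORFs) counted. The genes were chosen by name or systematic identifier as those of glycerol synthesis, glycerol use and glycerol transport, with no threshold on their read counts. All 10 were found in both libraries, and all 10 passed the filter of at least 20 reads over both libraries, as did 6248 ORFs in all. Messenger RNA was read in 2 libraries: strain CY2706 with the wild-type TRA1 gene gave 1 (the wild-type library), and strain CY3003 with the tra1-L3733A allele gave the other (the mutant library). Both strains were grown at 30 °C in YP medium with 2% glucose until the A600 reached 2.0, and neither strain's further genotype is given in the sources used here. TRA1 encodes a large protein shared by the SAGA and NuA4 acetyltransferase complexes, and the series compares expression between its wild-type and mutant forms.

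Yeast makes glycerol in a short branch from glycolysis: a dehydrogenase reduces dihydroxyacetone phosphate to glycerol 3-phosphate with NADH, and a phosphatase then releases glycerol. The branch disposes of surplus NADH and supplies the osmolyte that holds water in the cell when the medium is concentrated. Some of its genes are well known targets of the high osmolarity glycerol (HOG) kinase pathway. On glycerol as a carbon source, a kinase and a mitochondrial dehydrogenase return it to glycolysis, and a second route through dihydroxyacetone has been described.

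The 4 synthesis genes did not lie on one side of the wild-type library. The main dehydrogenase gene GPD1 had a mutant to wild-type ratio of 1.39, while its paralog GPD2 was at 0.787 and the phosphatase genes RHR2 and HOR2 were at 0.767 and 0.678. Among the other genes, GCY1, a reductase gene of the dihydroxyacetone route, was at 1.70. By the rule given below it was the only member of the 10 called higher, beside 2.80% of all tested ORFs. With 1 library per strain there is no replicate check, so each ratio compares these libraries and not the genotypes, and no p-value is given.

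The wild-type library held 11564964 counts and the mutant library 9970836. Ratios are of counts divided by library sizes that TMM, a trimmed mean over ORFs, had adjusted, and the range after each ratio is a 95% exact counting interval, which covers counting error only. An ORF was called higher or lower at a ratio of at least 1.5 either way with an interval that excluded 1. By that rule 1 of the 10 genes was higher and 0 were lower, beside 2.80% of all tested ORFs called higher and 5.46% called lower, and a single call among so few genes is no result about the set. In RNA from whole cultures, a difference in every cell and a difference in the share of cells that express a gene cannot be told apart. The TRA1 transcript itself was at 0.526 (0.509 to 0.544), a value that a point mutation neither requires nor forbids and that therefore does not check the labels.

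Since RHR2 and HOR2, and GPD1 and GPD2, are paralogs and the reads were 35 bases long, the coding sequences were compared first, to see whether such reads could be told apart. In the RefSeq R64 genome RHR2 and HOR2, both of 753 coding bases, were identical at 82.7% of aligned bases, and their longest shared run was 26 bases. GPD1 and GPD2 were identical at 74.3% of 1168 aligned bases, with a longest shared run of 25. No 35-base window of either pair was thus identical to its partner, and every such window of these 4 genes occurred once in the genome. Windows that differed from the partner at 2 bases or fewer made up 4.45% (phosphatases) and 0.404% (dehydrogenases) of the aligned windows. Reads from those windows were the most exposed to placement on the wrong copy. The 60 bases around each longest shared run are shown. Capitals mark the bases that differ between partners, and each sequence reads along its coding strand, at IX:255167-255226 (forward) for RHR2, V:280571-280630 (reverse) for HOR2, IV:412468-412527 (forward) for GPD1 and XV:217916-217975 (forward) for GPD2.
RHR2: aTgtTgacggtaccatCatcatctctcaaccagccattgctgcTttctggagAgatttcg
HOR2: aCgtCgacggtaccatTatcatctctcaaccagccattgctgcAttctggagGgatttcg
GPD1: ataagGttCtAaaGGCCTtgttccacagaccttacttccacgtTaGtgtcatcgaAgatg
GPD2: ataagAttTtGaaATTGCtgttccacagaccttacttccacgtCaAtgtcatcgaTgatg

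In these stretches the phosphatase pair differed at 5 of the 60 bases shown and the dehydrogenase pair at 11. The 10 genes have the same span in the files as in R64, although most start positions differ by a few bases, and each is a single exon in R64.

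GPD1 (YDL022W, chromosome IV, 411823 to 412998 in the files' coordinates) encodes the dehydrogenase that osmotic stress induces. It had 5918 wild-type and 6614 mutant reads. After scaling this was 495 against 686 counts per 1e6 (CPM), a ratio of 1.39 (1.34 to 1.44) and a log2 ratio of 0.47. Its interval lay wholly above 1 but its ratio was under the 1.5-fold limit, and 362 of the 6248 tested ORFs, or 5.79%, had a higher log2 ratio. GPD1 shares 257 bases with YDL023C, an ORF of span 321 that lies across its start. YDL023C had 1291 and 1427 reads, at a ratio of 1.37 (1.27 to 1.48). Whether those reads came from GPD1 cannot be told apart. It is not stated that strand was kept, and GPD1 itself had 2895 forward and 3023 reverse reads in the wild-type library. With all YDL023C reads taken away, GPD1 was at 1.39 (1.34 to 1.45).

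GPD2 (YOL059W, XV, 217126 to 218448) encodes the paralogous dehydrogenase, known for its role in redox balance when oxygen is short. It went from 1001 to 635 reads, or from 83.7 to 65.9 CPM. The ratio was 0.787 (0.712 to 0.871) and the log2 ratio -0.34, on the other side of 1 from GPD1. GPD1 thus made up 85.5% (84.7 to 86.4%, exact binomial) of the reads of the pair in the wild-type library and 91.2% (90.6 to 91.9%) in the mutant library. This share is taken within a library, so it does not depend on how the libraries were scaled. Per kilobase of ORF, the GPD1 level was 6.65 times that of GPD2 in the wild-type library and 11.7 times in the mutant library.

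Both glycerol phosphatase genes lay below 1. RHR2 (YIL053W, IX, 255113 to 255865) went from 6083 wild-type to 3757 mutant reads, or from 508 to 390 CPM, with a ratio of 0.767 (0.736 to 0.799). HOR2 (YER062C, V, 279928 to 280680), the phosphatase gene known as induced by osmotic stress, had 3259 and 1779 reads, or 272 against 185 CPM. Its ratio of 0.678 (0.639 to 0.718) and log2 ratio of -0.56 were the lowest of the 10 genes, and 6.56% of tested ORFs had a lower log2 ratio. HOR2 was just short of the 1.5-fold limit, and total counts in place of TMM sizes put it past the limit, at 0.633 (0.597 to 0.671), where 8.24% of tested ORFs were called lower. RHR2 held 65.1% (64.1 to 66.1%) of the pair's reads in the wild-type library and 67.9% (66.6 to 69.1%) in the mutant library. The 2 intervals did not overlap, though the shares of the forward and of the reverse reads in the wild-type library, 66.2% and 64.1%, were nearly as far apart.

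At the level of summed reads, the step from dihydroxyacetone phosphate to glycerol 3-phosphate and the step from there to glycerol therefore differed in direction. The sum for the first step was mostly GPD1, with 85.5% (wild type) and 91.2% (mutant) of the dehydrogenase reads. GPD2 lay below 1, as did the phosphatase genes. These sums by step were not among the planned results. Both dehydrogenase genes together had 6919 and 7249 reads, a ratio of 1.30 (1.26 to 1.34). Both phosphatase genes together had 9342 and 5536 reads, a ratio of 0.736 (0.711 to 0.761), and a sum over the pair does not depend on how reads were divided between its copies. Within the wild-type library there were 1.35 (1.31 to 1.39) phosphatase reads per dehydrogenase read, and within the mutant library 0.764 (0.737 to 0.791). Per kilobase, RHR2 stood at 1.61 times the level of GPD1 in the wild-type library and at 0.887 times in the mutant library, so the order of these genes was exchanged. The 4 synthesis genes summed to 1359 and 1327 CPM, a ratio of 0.976 (0.954 to 0.999), in which the higher GPD1 and the lower other members nearly cancelled. How nearly they cancelled depended on the scaling, since this sum was at 0.912 with total counts and at 0.917 with lane reads. With total counts the dehydrogenase sum was at 1.22 and the phosphatase sum at 0.687.

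**Figure D1:**
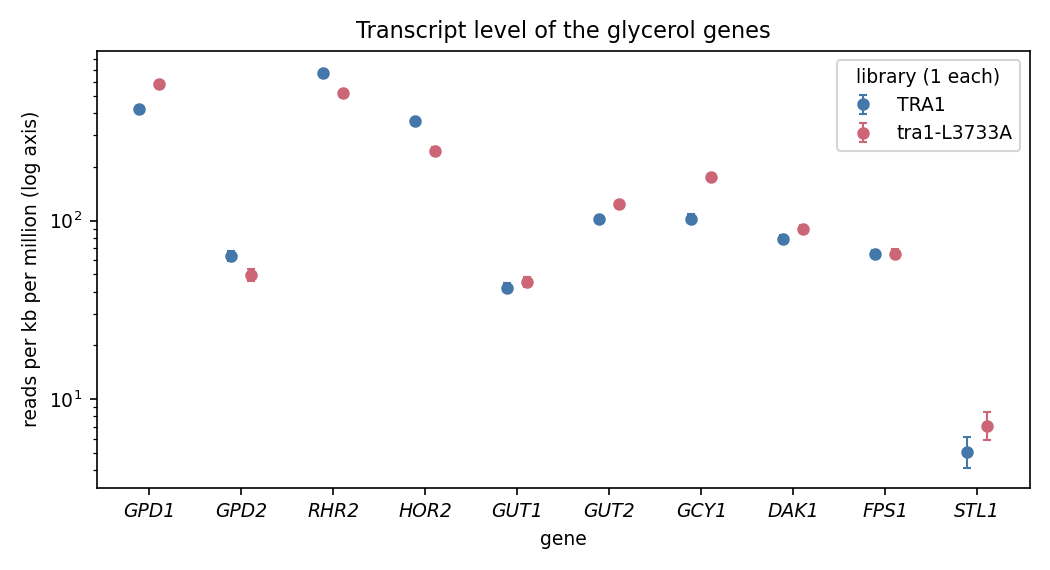
Level of each of the 10 genes in reads per kilobase of ORF per 1e6 scaled reads, on a log axis, with 1 point per library and bars for the 95% counting interval. GPD1 and GCY1 sat higher in the mutant library, RHR2, HOR2 and GPD2 sat lower, and STL1 was the lowest gene in both.

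Genes that feed glycerol back into metabolism had ratios at or a little above 1. GUT1 (YHL032C, VIII, 36377 to 38506), the glycerol kinase gene, had 1072 and 935 reads, which is 89.6 and 97.0 CPM. Its ratio of 1.08 (0.991 to 1.18) had an interval that included 1. GUT2 (YIL155C, IX, 51759 to 53708), which encodes the mitochondrial glycerol 3-phosphate dehydrogenase, had 2392 and 2333 reads, or 199.9 and 242 CPM. Its ratio was 1.21 (1.14 to 1.28), above 1 beyond counting error and under the limit of the size rule. Summed over both genes the ratio was 1.17 (1.12 to 1.23). GUT2 held 69.1% (67.5 to 70.6%) of their reads in the wild-type library and 71.4% (69.8 to 72.9%) in the mutant library, and these intervals overlapped.

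In the dihydroxyacetone route, the first gene stood apart from the second. GCY1 (YOR120W, XV, 551115 to 552053), an aldo-keto reductase gene assigned to the oxidation of glycerol to dihydroxyacetone, had 1150 wild-type and 1579 mutant reads. That is 96.1 against 164 CPM, a ratio of 1.70 (1.58 to 1.84) and a log2 ratio of 0.77. Only 83 of the 6248 tested ORFs, or 1.33%, had a higher log2 ratio. The forward reads alone gave 1.69 (1.51 to 1.89) and the reverse reads alone 1.72 (1.55 to 1.91). GCY1 shares 255 bases with YOR121C, of span 306, which had 267 and 343 reads, at a ratio of 1.59 (1.36 to 1.88). With all YOR121C reads taken away, an alternative chosen after the data were seen, 883 and 1236 reads remained for GCY1 and the ratio was 1.74 (1.59 to 1.90), still past the limit.

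DAK1 (YML070W, XIII, 133475 to 135229), the main dihydroxyacetone kinase gene, had 1663 and 1523 reads, or 139 and 158 CPM. The ratio was 1.14 (1.06 to 1.22). Forward reads gave 1.06 (0.960 to 1.18) and reverse reads 1.20 (1.09 to 1.33), so the interval of the forward reads included 1. DAK1 and its paralog DAK2 shared their reads alike in both libraries, with DAK1 at 89.6% (88.2 to 91.0%) in the wild type and 90.0% (88.4 to 91.3%) in the mutant. GCY1 reads per DAK1 read were 0.692 (0.641 to 0.746) in the wild-type library and 1.04 (0.966 to 1.11) in the mutant library.

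The transporter genes differed in level more than in ratio. FPS1 (YLL043W, XII, 49937 to 51946), the channel through which glycerol leaves the cell, had 1566 and 1265 reads and was at 131 CPM in both libraries. Its ratio of 1.003 (0.930 to 1.08) was the nearest to 1 of the 10 genes. STL1 (YDR536W, IV, 1507997 to 1509706), the glycerol and proton symporter, is known to be repressed by glucose, and had only 103 and 117 reads, or 8.61 and 12.1 CPM. Its ratio was 1.41 (1.07 to 1.86), close to that of GPD1 but on so few reads that the interval ran from near 1 to beyond the 1.5-fold limit. With forward reads alone the STL1 interval, 0.887 to 1.94, included 1, and with reverse reads alone it was at 1.52 (1.02 to 2.26) and passed the rule, as 3.03% of ORFs did on that column.

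**Figure D2:**
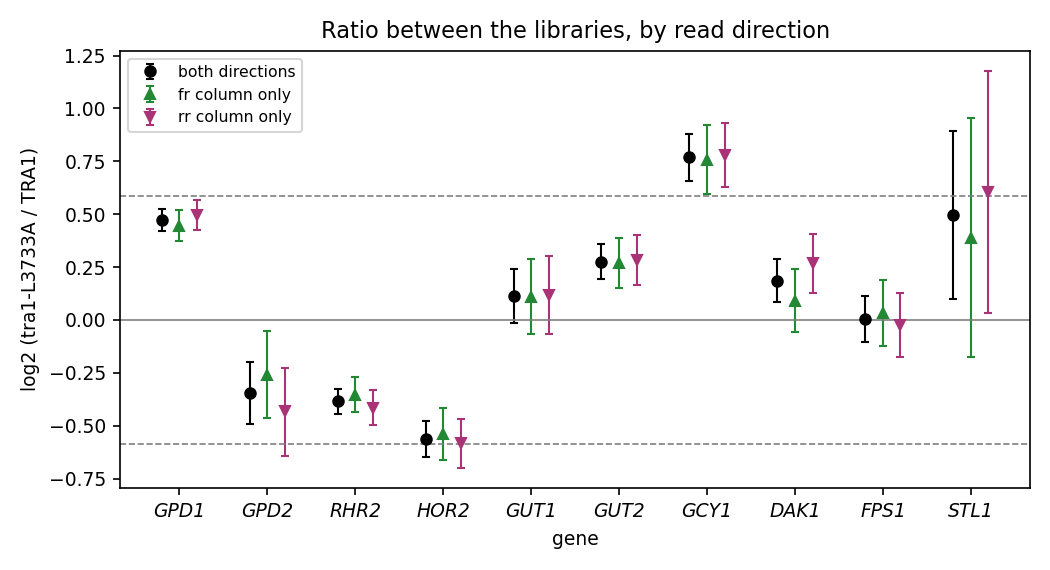
Log2 ratio of mutant to wild type for each gene from both read directions together, from the fr column and from the rr column, with 95% counting intervals and dashed lines at the 1.5-fold limits. The intervals of the 2 directions overlapped for all 10 genes, and GCY1 alone lay past a limit with both directions together.

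Levels per kilobase spanned a wide range. In the wild-type library RHR2 was highest with 675 reads per kilobase per 1e6 scaled reads, followed by GPD1 with 421 and HOR2 with 362, each above 93.1% of tested ORFs or more. GUT2 and GCY1 came next at 103 and 102, and their intervals overlapped. DAK1 was at 79.2, while FPS1 at 65.1 and GPD2 at 63.2 could not be ordered. GUT1 at 42.1 lay near the median of tested ORFs, 35.2, and STL1 at 5.03 lay above only 3.57% of them.

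In the mutant library GPD1 came first, at 584 reads per kilobase per 1e6 scaled reads, ahead of RHR2 at 518 and HOR2 at 245. GCY1 at 174 lay above GUT2 at 124, with no overlap of their intervals. DAK1 at 90.0 and FPS1 at 65.3 followed, then GPD2 at 49.8 and GUT1 at 45.5, whose intervals overlapped, and STL1 was again last at 7.10. RHR2 and GPD1 thus exchanged places between the libraries, while GUT2 and GCY1 could be ordered in the mutant library only.

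**Figure D3:**
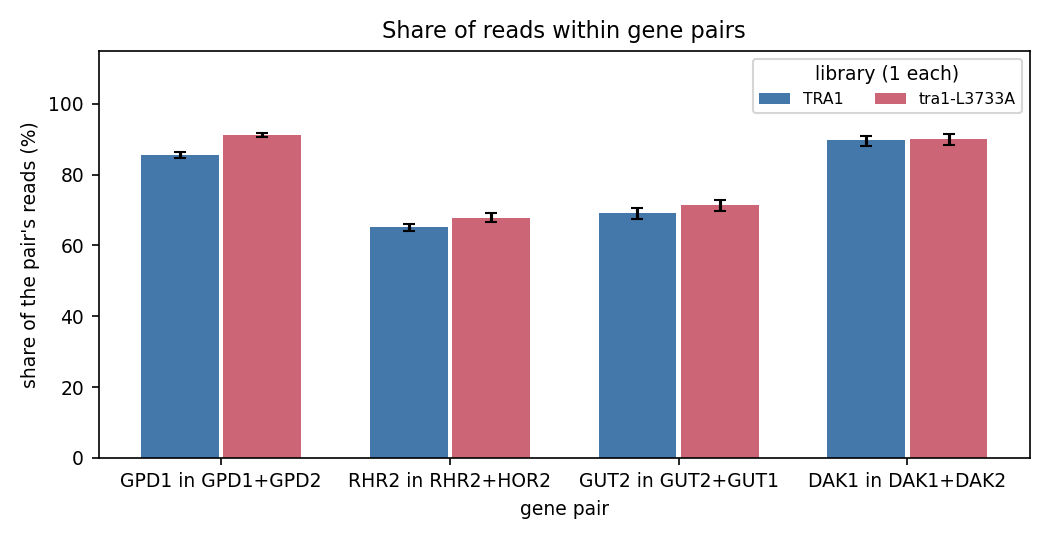
Share of a gene pair's reads held by the first gene, in percent, in each library, with exact binomial 95% intervals. The GPD1 share was 85.5% in the wild-type library and 91.2% in the mutant library, the widest gap of the 4 pairs.

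Set against all tested ORFs, the 10 genes were spread to both sides. By sign, 7 ratios lay above 1 and 3 below. At a milder limit of 5/4 in place of 1.5, GCY1, STL1 and GPD1 were higher and HOR2, RHR2 and GPD2 lower, that is 3 genes each way, where 10.7% of tested ORFs were higher and 14.4% lower. The counting interval lay wholly above 1 for 5 genes and wholly below for 3, while it included 1 for GUT1 and FPS1. Among all 6248 tested ORFs the interval lay above 1 for 24.2% and below 1 for 25.5%, so an interval that excludes 1 is common in these deep libraries. The median log2 ratio of the 10 genes was 0.15, and that of all tested ORFs was -0.00, with an SD of 0.35.

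**Figure D4:**
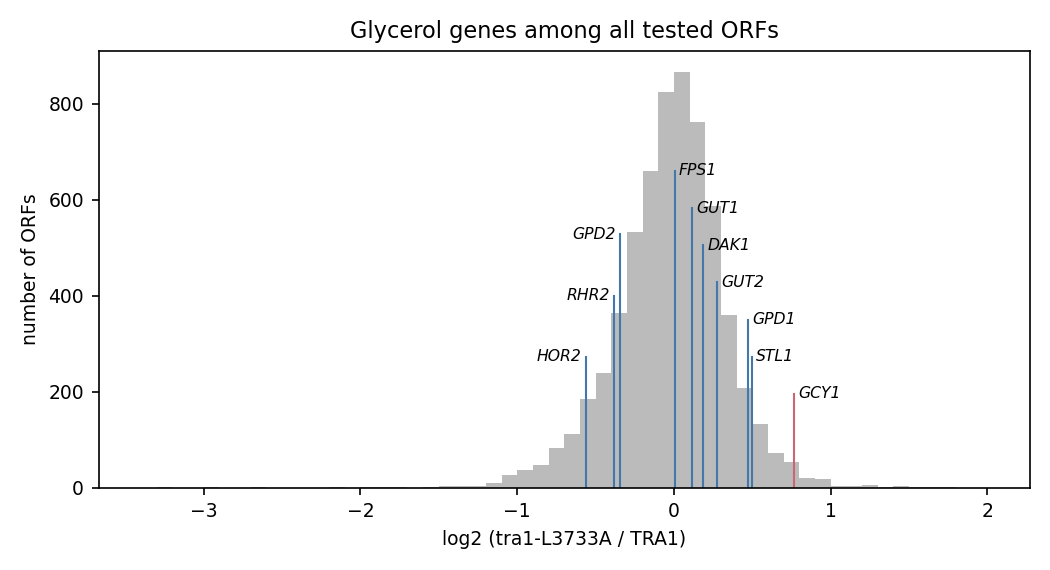
Distribution of the log2 ratio over the 6248 tested ORFs in bins, with a line for each of the 10 genes, whose height only separates the labels. HOR2 at -0.56 and GCY1 at 0.77 are the outer members, and FPS1 sits at the centre.

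Sequences upstream of the 10 genes were searched in R64 for motifs of known regulators, in the 500 bases before each start codon and on both strands. The letters AGGGG, the stress response element bound by Msn2 and Msn4, occurred upstream of 7 of the 10 genes and of 34.1% of 6006 genes. They were found for GCY1, GPD1, HOR2, GPD2, GUT1, GUT2 and STL1, that is upstream of genes with ratios on either side of 1. The letters CGGNNNNNNNNNNNCCG, the pattern of a Gal4 site, occurred upstream of GCY1 alone among the 10 and of 2.98% of all genes, and GCY1 is a known target of the galactose activator Gal4. The letters TATAAA occurred for 7 of the 10 and 60.5% of all genes. CATGTG, the core of the element bound by Ino2 and Ino4, occurred for 2 of the 10, GUT1 and GPD2, and for 13.2% of all genes. A match of letters is a description and does not show that a factor was bound. Both cultures were grown with 2% glucose, and no link between a motif and a ratio was tested.

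The windows shown are those of the gene called higher and of the synthesis genes with the outermost ratios, each of 30 bases on the coding strand with the motif in capitals. They lie at XV:550739-550768 (GCY1, Gal4 pattern, from 369 bases before the start codon), XV:550818-550847 (GCY1, stress element, from 284), IV:411483-411512 (GPD1, from 330, the farthest of its 3 matches) and V:280939-280968 (HOR2, reverse strand, from 274).
GCY1 Gal4 pattern: aacaatCGGGGCAGACTATTCCGgggaaga
GCY1 stress element: gccttctcagaaAGGGGtagaatcaatcta
GPD1 stress element: taaacggggcgcCCCCTgcaggccctcctg
HOR2 stress element: tacatagctgccCCCCTaaacgggcctccc

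The same stress letters stood upstream of GCY1 at 1.70, GPD1 at 1.39 and HOR2 at 0.678. They had no match upstream of RHR2 at 0.767, DAK1 at 1.14 and FPS1 at 1.003.

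Other genes tied to glycerol were taken as 8 lists of 64 different genes, GRE3 being in 2 of them. Over these 64 genes, 4 were higher and 1 lower by the size rule, beside 2.80% and 5.46% of all tested ORFs, and the median log2 ratio was 0.01.

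All 4 higher genes were among the 10 osmotic stress genes outside glycerol metabolism, where 0 were lower and the median log2 ratio was 0.33. Over all tested ORFs 2.80% were higher and 5.46% lower. The list was chosen with earlier results of these data known, so its count is a description only. GRE1, a hydrophilin gene induced by osmotic stress, had 91 and 172 reads, at a ratio of 2.35 (1.81 to 3.06). HSP12, a membrane-associated stress protein gene, was at 1.75 (1.71 to 1.79), and CTT1, the cytosolic catalase gene, at 1.70 (1.58 to 1.83). ALD3, an aldehyde dehydrogenase gene named here as the remaining call after its values were seen, was at 1.65 (1.49 to 1.83). The others were not called, among them the sodium pump gene ENA1 with 2510 and 2187 reads, likewise chosen, at 1.08 (1.02 to 1.15). PAI3, a gene for a proteinase inhibitor and likewise chosen, lay the other way, at 0.680 (0.464 to 0.985) on 84 and 46 reads.

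The 18 genes of HOG signalling, from the sensors to the kinases and phosphatases, gave 0 higher and 0 lower. This stands beside 2.80% of all tested ORFs called higher and 5.46% called lower, so it is no result about the 18 genes. Their median log2 ratio was -0.02, with a range from -0.39 to 0.30. SHO1, an osmosensor gene, had 807 and 496 reads, at a ratio of 0.763 (0.681 to 0.854), and SSK2, a kinase of the other sensor branch, had 1297 and 819 and was at 0.784 (0.717 to 0.856). HOG1 itself, the kinase that gives the pathway its name and that was chosen after its values were seen, was at 0.793 (0.743 to 0.846) on 2370 and 1514 reads. Of 6 genes for transcription factors that act with Hog1 or in osmotic stress, MSN1 was lower at 0.590 (0.486 to 0.713) on 339 and 161 reads. In that list 0 were higher and the median log2 ratio was -0.09, and a single call among 6 genes is no result about the list.

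**Figure D5:**
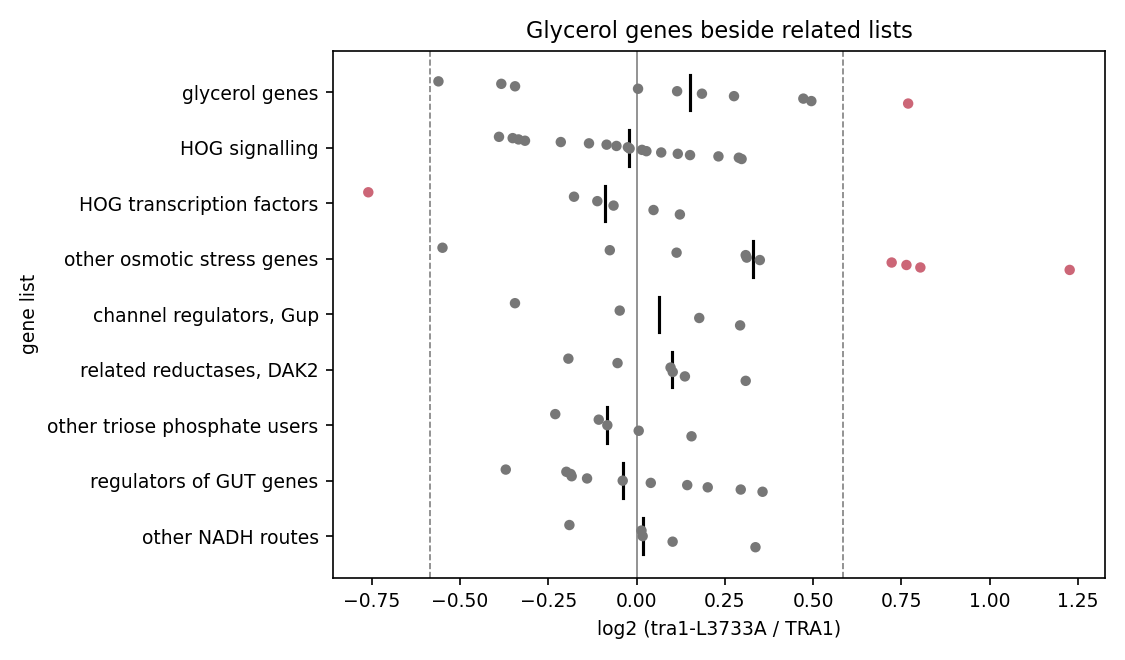
Log2 ratio of each gene in the glycerol set and in the 8 related lists, with black bars for list medians, dashed lines at the 1.5-fold limits and red points for genes called by the size rule. Red points occur in the glycerol set (GCY1), among other osmotic stress genes (4 higher) and among HOG transcription factors (MSN1, lower).

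None of the remaining 5 lists held a called gene with both read directions together, beside 2.80% of all tested ORFs called higher and 5.46% called lower. Of 4 genes for regulators of the Fps1 channel and for Gup proteins, ASK10, a channel regulator gene, was at 0.787 (0.733 to 0.845) and GUP2 at 1.23 (0.881 to 1.70), with a median log2 ratio of 0.06. Of 6 genes for related reductases and the second dihydroxyacetone kinase, the aldose reductase gene GRE3 was at 1.24 (1.16 to 1.32) and YPR1, a paralog of GCY1, at 0.875 (0.805 to 0.9499). YPR1 was thus on the other side of 1 from GCY1, and the list's median log2 ratio was 0.10.

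Among 5 genes for enzymes that also act on dihydroxyacetone phosphate or glycerol 3-phosphate, the acyltransferase gene SCT1, which overlaps YBL012C, was at 0.852 (0.784 to 0.927). The aldolase gene FBA1 was at 1.11 (1.106 to 1.122), and the list's median log2 ratio was -0.08. Of 11 genes for regulators of GUT1 and GUT2 transcription, INO2, an activator gene, was at 0.773 (0.639 to 0.932), HAP5, a subunit of the CCAAT-binding complex, was at 1.28 (1.02 to 1.60), and the median was -0.04. Among 5 genes for other routes of NADH reoxidation, NDE1, the external NADH dehydrogenase gene, was at 1.26 (1.23 to 1.29) on 12529 and 12746 reads, and the mitochondrial alcohol dehydrogenase gene ADH3 was at 0.876 (0.837 to 0.918). The median of that list was 0.02.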

How the data were processed

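The deposited files hold raw read counts per ORF under the undefined labels fr and rr (per the file headers), read here as forward and reverse reads. A coverage signal deposited beside them equals the summed counts divided by ORF length to 5e-07 and was not used further. The submitters' processing notes name the aligner Novoalign. Neither its version nor the build or strandedness is given in the sources used here. Each library was run on 1 lane, giving 13014880 wild-type and 11156078 mutant reads per the labels' protocols.

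Both directions were summed and scaled with edgeR 4.0.16 in R 4.3.3 by its trimmed mean method (TMM), whose factors were 1.03 (wild type) and 0.967 (mutant). With 1 library per strain no spread can be estimated, so edgeR's quasi-likelihood test was not run. Ratios have exact (Clopper-Pearson) intervals and levels have exact Poisson intervals. They cover counting error only, with each read taken as independent, and no spread between cultures. PCR copies of 1 molecule cannot be recognised and would make the intervals too narrow. Log2 ratios used 0.5 added reads. Levels per kilobase used the ORF span in the files. The calculation was tested on simulated data that held counting error only, so that test says nothing about spread between cultures. Sequences came from RefSeq R64 by identifier with R64's own coordinates, which were not combined with those of the files.

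The 10 genes and the related lists were chosen with earlier results of these data known. All 10 are named. From each related list the called genes with the farthest interval bound are named, at most 3, or, without a call, the 2 genes with the largest absolute log2 ratio. Alternatives were scaling by total counts, lane reads or DESeq2 1.42.0 size factors, read filters of 1 and 100, single directions, folds of 5/4 and 2, a length trend removed (lowess, fraction 0.3), overlapping ORFs left out, and the reads of overlapping ORFs subtracted.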

Additional observations from a re-analysis of the deposited data

How the results depend on the processing

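The ratios of the 10 genes kept their side of 1 under every alternative run, except FPS1, which ranged from 0.937 to 1.02. GCY1 ranged from 1.59 to 1.74, GPD1 from 1.30 to 1.41, HOR2 from 0.633 to 0.689 and RHR2 from 0.716 to 0.783. The count of the 10 genes called lower was 1 (HOR2) with total counts, where 8.24% of all tested ORFs were lower. It was also 1 (HOR2) with lane reads, where 500 of the 6248 tested ORFs were lower. A single call among 10 genes beside such shares is no result about the set. At a fold of 5/4 the count was 3, where 14.4% of all tested ORFs were lower. The count called higher was 2 with reverse reads alone (3.03% of all tested ORFs), 3 at a fold of 5/4 (10.7%), 0 at a fold of 2 (0.320%) and 0 with overlapping ORFs left out (2.42%), which removes GCY1 and GPD1. Over the 64 related genes, 2 were lower with total counts (8.24% of all tested ORFs) or lane reads (500 of the 6248 tested ORFs). Reverse reads alone also gave 2 lower (6.09%), and PAI3 was the gene added under each of these settings. With forward reads alone 5 were higher (3.43%), the added gene being HAP3, a regulator of glycerol use genes; HAP3 and PAI3 were chosen after their values were seen. At a fold of 2, 1 was higher and 0 lower (0.320% and 0.912%), and at a fold of 5/4, 7 were higher and 7 lower (10.7% and 14.4%). Taken per kilobase, the GPD1 share was 86.9% in the wild type and 92.1% in the mutant, and the GUT2 share 70.9% and 73.2%. In the wild-type library the forward and reverse reads gave RHR2 shares of 66.2% and 64.1% and DAK1 shares of 87.7% and 91.5%. No paired analysis was possible because there was 1 library per strain, and leaving out a replicate was not possible for the same reason. Depth limits STL1 most.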
